A study of Arabidopsis thaliana with 3 samples.

Results

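The RNA helicase genes of *Arabidopsis thaliana* were examined as a group for cytosine methylation in mature leaves, measured genome-wide by bisulfite sequencing (BS-seq). They were taken as the protein-coding nuclear genes whose product name contains the words RNA helicase, which gave 68 of 27444 genes. The data comprised 2 libraries of plants with reduced histone H3.3 (*h3.3kd*, replicates 1 and 2), the variant deposited outside replication, and 1 library of wild type (WT), all in ecotype Col-0. The *h3.3kd* plants were homozygous for T-DNA insertions in *HTR4* and *HTR8* and expressed, from the promoter of *HTR5*, an artificial microRNA against *HTR5* itself, the remaining gene for H3.3. The study names 2 transgenic lines for its methylation data, and which of them gave which *h3.3kd* library is not stated in the labels. The spread between these libraries can therefore include a difference between lines. The transcript level of *HTR5* cannot be read from BS-seq, and any other difference between the lines and WT cannot be told apart from the knockdown.

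RNA helicases use ATP to unwind RNA or to strip proteins from it, and every step in the life of an RNA needs some of them. DEAD-box and DEAH-box proteins, named after a motif in one-letter amino acid code, drive splicing, ribosome assembly, translation and RNA turnover, and Ski2-like proteins feed RNA to the exosome, the complex that degrades RNA from its 3′ end. Many of these genes are active in every cell, and genes of that kind in plants often carry gene body methylation, which is methylation of cytosines in CG dinucleotides inside the transcribed region, with little at cytosines in CHG and CHH contexts (H is A, C or T). CG methylation is copied at each replication by the maintenance methyltransferase MET1, because the CG on the opposite strand serves as the template.

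After bisulfite treatment an unmethylated cytosine is sequenced as T and a methylated one as C, and the methylation level of a gene was the number of C calls over all C and T calls at its CG cytosines. The mean depth was 19.19 and 19.65 calls per cytosine in the *h3.3kd* libraries and 19.59 in WT. Each RNA helicase gene had between 24 and 438 CG cytosines and between 514 and 9362 CG calls in a library, and the 95% Wilson interval of its level extended from 0.321 to 2.53 percentage points to either side, which covers counting error only. Because WT was not replicated, the difference between the *h3.3kd* libraries was the only replicate error. An exact permutation of 2 libraries against 1 cannot give a two-sided p below 0.333, and the Fisher's exact tests below therefore compare libraries, not conditions.

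The label holds for most but not all of these genes. By the protein domains in the annotation, 31 were DEAD-box genes and 16 DEAH-box genes, and by their product names 3 were Ski2-like genes. A further 9 had other helicase domains, and among them are *FANCM*, *RecQl3* and *RAD5*, whose relatives are known for work on DNA repair and recombination. The last 9 had no annotated helicase domain, with a median length of 831 bp.

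Sequences that carried clear changes are shown first. Each is a 100-bp tile from the called tiles free of untranslated exon, ranked by the smaller of the differences from WT. In each of the 5 genes called lower over the gene body it is the largest lower tile. In *FANCM*, the gene with the most tiles called higher, it is the largest higher tile. In *FANCM* and *LBA1* a tile of the other direction changed more. That of *FANCM* was at 0% in both *h3.3kd* libraries and 56.25% in WT. They are written 5′ to 3′ on the strand of the gene, from the reference genome (TAIR10), with each CG in capitals.
AT4G33370, chr4:16070601-16070700, minus strand: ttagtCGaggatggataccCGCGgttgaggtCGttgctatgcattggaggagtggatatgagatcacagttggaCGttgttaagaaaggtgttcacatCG
*UAP56a*, chr5:3556001-3556100, plus strand: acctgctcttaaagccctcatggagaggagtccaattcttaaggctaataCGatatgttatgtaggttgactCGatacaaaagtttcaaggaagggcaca
*LBA1*, chr5:19078701-19078800, plus strand: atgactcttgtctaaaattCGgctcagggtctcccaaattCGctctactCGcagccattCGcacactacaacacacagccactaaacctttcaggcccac
*emb1138*, chr5:9286101-9286200, minus strand: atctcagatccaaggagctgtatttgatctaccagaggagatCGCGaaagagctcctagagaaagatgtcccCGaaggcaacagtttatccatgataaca
AT3G58510, chr3:21642801-21642900, plus strand: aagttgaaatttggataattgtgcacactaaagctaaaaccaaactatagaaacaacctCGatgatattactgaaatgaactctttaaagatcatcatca
*FANCM*, chr1:13094401-13094500, plus strand: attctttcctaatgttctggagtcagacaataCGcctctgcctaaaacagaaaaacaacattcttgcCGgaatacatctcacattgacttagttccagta

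In the *LBA1* tile 73 bp were coding sequence and 27 bp intron, and its 4 CGs had 0 methylated calls in *h3.3kd* 1 and *h3.3kd* 2, of 103 and 140 calls, which allow levels of up to 2.91% and 2.14%. In WT the same 4 CGs were at 90.6%, 87.2%, 87.8% and 70.7%. In the tile of AT4G33370, all coding sequence, each of the 6 CGs was at 0% in both *h3.3kd* libraries (of 185 and 221 calls, which allow 1.62% and 1.36%), against 84.9%, 72.7%, 79.1% and 60% at the first 4 CGs in WT. The last 2 CGs were at 0% in WT as well, so that methylated and unmethylated CGs stood side by side in one 100-bp stretch. The 2 CGs of the *UAP56a* tile were at 0% in *h3.3kd* 1, where 0 of 42 calls allow up to 7.14%, and at 2.86% and 0% in *h3.3kd* 2, against 96.8% and 90.5% in WT. The *emb1138* tile was lower but not empty, with its 3 CGs at 30%, 27.1% and 19.0% in *h3.3kd* 1 and 36.7%, 34.5% and 16.7% in *h3.3kd* 2, against 96.8%, 96.4% and 86.4% in WT. The single CG of the AT3G58510 tile, in an intron, was at 2.44% in *h3.3kd* 1 and at 0% of 53 calls in *h3.3kd* 2, which allows 5.66%, and at 87.0% in WT. In the *FANCM* tile, all coding sequence, the first CG was at 0% in both *h3.3kd* libraries and at 2.56% in WT, and the second was at 86.4% and 82.6% in the *h3.3kd* libraries, against 0% of 50 calls in WT.

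The first comparison asked how much CG methylation the RNA helicase genes carried when H3.3 was reduced. Pooled over the 68 genes, the CG level was 29.1% in *h3.3kd* 1 and 28.1% in *h3.3kd* 2, against 32.6% in WT. The mean of 28.6% ± 0.729 (SD, n = 2) lay 4.03 percentage points below WT, and both *h3.3kd* libraries were lower than WT by more than they differed from each other (-1.03 points). Other protein-coding genes were less methylated, at 14.9% and 14.5% in the *h3.3kd* libraries and 16.6% in WT, a difference of -1.90 points. Relative to the WT level the change was -12.4% in the RNA helicase genes and -11.4% in the other genes. These pooled levels were not tested.

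The RNA helicase genes spanned nearly the whole range of CG levels. In WT, 10 were under 2%, 15 between 2% and 20%, 40 between 20% and 60%, and 3 at 60% or more. The median was 26.4%, against 5.18% over all genes tested, and the median length was 3758 bp, against 2096 bp. Of the 9 genes with no annotated helicase domain, 8 were in the group under 2%. The 16 DEAH-box genes had the highest median of the larger classes, 38.7% in WT, and the 31 DEAD-box genes had a median of 22.2%.

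**Figure D1:**
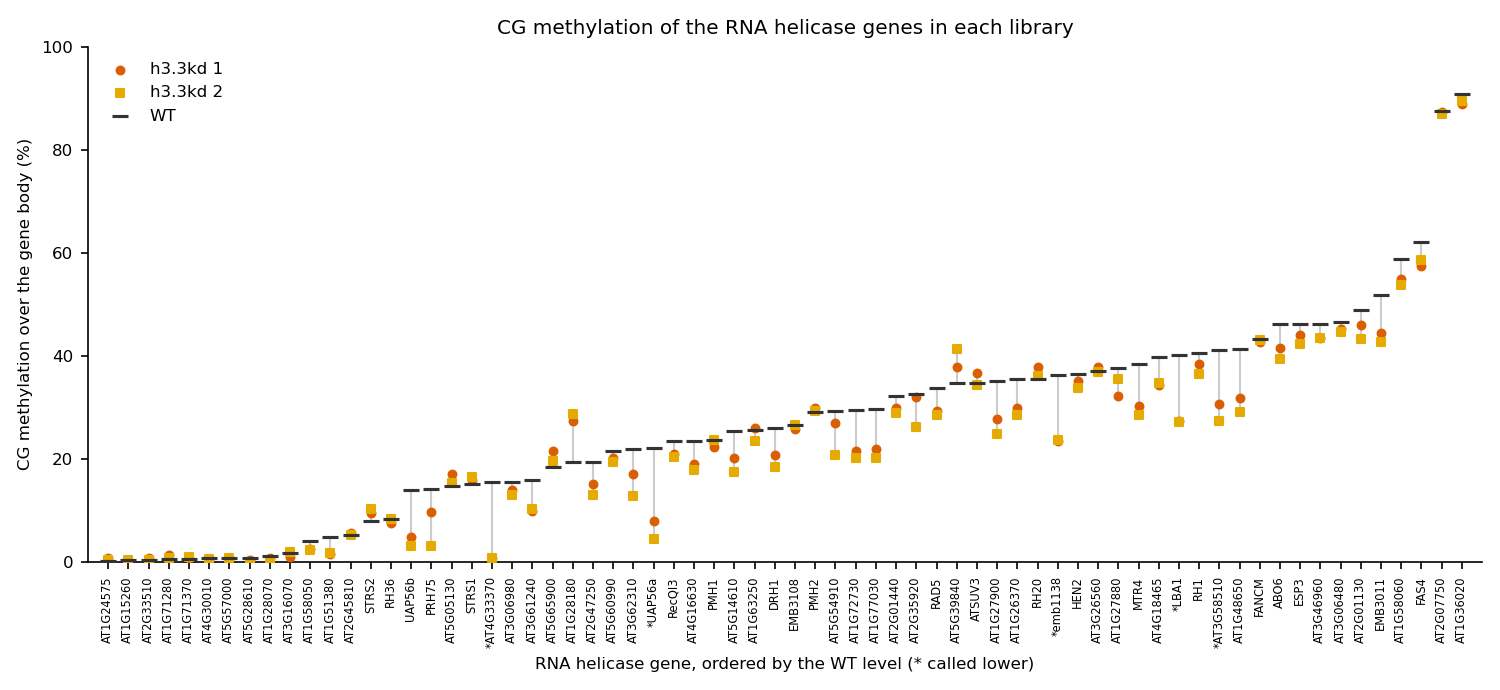
CG methylation (%) over the gene body of each of the 68 RNA helicase genes, ordered by the WT level, with circles for *h3.3kd* 1, squares for *h3.3kd* 2, dashes for WT and an asterisk at each of the 5 genes called lower. The genes under 2% in WT lie together in all libraries, most genes between 20% and 60% have both *h3.3kd* points below the WT dash, and 2 genes near 90% show little difference.

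Per gene, a change was called where both *h3.3kd* libraries differed from WT by at least 10 percentage points in the same direction at a false discovery rate (FDR) under 0.01, by two-sided Fisher's exact tests adjusted by Benjamini-Hochberg over 26970 genes. All 68 RNA helicase genes could be tested. Of them 5 were called lower, or 7.35%, where 1.44% of all tested genes were called lower, and 0 were called higher, where 0.304% of all genes were. A drop of 10 points is possible only in genes at 10% or more in WT. Without *h3.3kd* replicate 1 the count of RNA helicase genes called lower was 9, and that of all genes 710 in place of 389. With limma at an FDR under 0.05 it was 0, as over all genes. At an unadjusted limma p under 0.05, 20 of the 68 RNA helicase genes were lower and 1 higher, against 3947 and 1562 of all genes. Without the size threshold, 29 RNA helicase genes (42.6%) were lower at an FDR under 0.01 in both libraries, against 19.0% of all genes, and 1 was higher, against 4.84% of all genes. In direction alone, 50 were below WT in both *h3.3kd* libraries and 14 above it in both. The same count was not made over all genes, so these values do not set the RNA helicase genes apart. The median difference was -2.76 points, with quartiles of -5.85 and -0.167, against -0.221 over all genes tested.

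**Figure D2:**
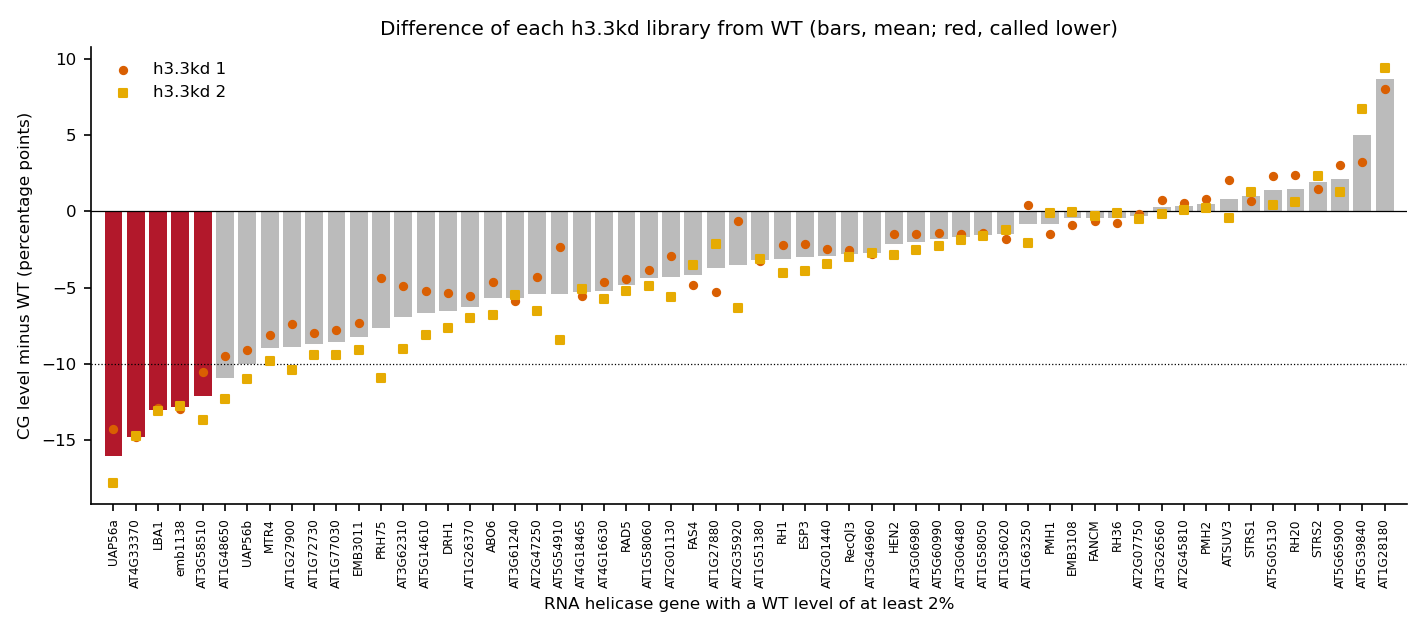
Difference of the CG level from WT (percentage points) in the 58 RNA helicase genes with a WT level of at least 2%, with bars for the mean of the *h3.3kd* libraries, circles for *h3.3kd* 1, squares for *h3.3kd* 2 and a dotted line at the threshold of -10 points. The 5 red bars are the genes called lower, and the bars run to 8.69 points at AT1G28180 on the right.

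*UAP56a* (AT5G11170, chromosome 5, 3553096 to 3557018, plus strand), which encodes a homolog of human UAP56, a DEAD-box protein of splicing and mRNA export, had the largest drop. Its level was 7.88% in *h3.3kd* 1 and 4.33% in *h3.3kd* 2, against 22.2% in WT, a difference of -16.05 points (SD 2.50, n = 2, Fisher's exact test with FDR = 2.69e-40 and 7.11e-74). The fall was large in both libraries and deeper in the second. Of its 17 CG dyads (a CG with the CG opposite) that were methylated in WT, 8 were unmethylated in both *h3.3kd* libraries and 3 kept their methylation in both. The lower tiles merged into one stretch of 1100 bp, from 3555101 to 3556200, of which 377 bp were coding and 723 bp intron. CG methylation there was 6.40% in *h3.3kd* 1 and 1.29% in *h3.3kd* 2, against 67.2% in WT.

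*UAP56b* (AT5G11200), a close copy on the same chromosome, was at 4.87% and 3.01% in the *h3.3kd* libraries and 13.97% in WT. Its mean difference was -10.03 points (SD 1.31, n = 2), but *h3.3kd* 1 missed the threshold of 10 points and the gene was not called. The copies share sequence, which can misplace reads. After bisulfite conversion, 19.98% of the 50-base windows of *UAP56a* occurred in *UAP56b* as well. Within the stretch of 1100 bp 4.28% of windows occurred elsewhere in the nuclear genome, and within the longer lower stretch of *UAP56b*, of 500 bp, 8.20% did. The part of shared reads in these differences was not tested. The genes also lie 80.7 and 94.8 kb from *HTR8*, one of the genes with a T-DNA insertion in the mutants, and a difference carried on the chromosome segment around that insertion cannot be told apart from the knockdown.

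AT4G33370 (chromosome 4, 16069669 to 16071405, minus strand), a DEAD-box gene, lost nearly all of its methylation. It was at 0.629% and 0.675% in the *h3.3kd* libraries and 15.4% in WT, a difference of -14.8 points (SD 0.0325, n = 2, Fisher's exact test with FDR = 4.61e-60 and 2.15e-60). All 7 dyads that were methylated in WT were unmethylated in both *h3.3kd* libraries. The libraries were nearly equal to each other and far from WT. In the middle 40% of the gene the *h3.3kd* libraries had 0.457% and 0.758%, against 30.6% in WT, and in the first 30% they had 1.55% and 0.882%, against 6.13%.

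*LBA1* (AT5G47010, chromosome 5, 19071824 to 19079453, plus strand) encodes UPF1, the helicase at the core of nonsense-mediated decay, which removes transcripts with premature stop codons. It was at 27.3% and 27.1% in the *h3.3kd* libraries and 40.2% in WT, a difference of -13.0 points (SD 0.114, n = 2, Fisher's exact test with FDR = 4.26e-51 and 1.44e-52). The change differed along the gene. In the first 30% of its length the level was 21.0% and 23.5% in the *h3.3kd* libraries and 21.8% in WT, in the middle 40% it was 55.9% and 54.9%, against 68.7%, and in the last 30% it was 8.09% and 5.87%, against 38.8%. It had 14 lower tiles, more than any other RNA helicase gene, and 11 of them merged into 1500 bp (19077401 to 19078900) with a level of 12.1% and 8.50% in the *h3.3kd* libraries and 55.5% in WT. It also had 2 higher tiles, each resting on the calls of a single CG dyad. In the one from 19073401 to 19073500 the *h3.3kd* libraries were at 92.7% and 85.7%, against 0% of 34 calls in WT.

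*emb1138* (AT5G26742, chromosome 5, 9284557 to 9289003, minus strand), which encodes RH3, a chloroplast DEAD-box protein, was at 23.4% and 23.6% in the *h3.3kd* libraries and 36.3% in WT, a difference of -12.8 points (SD 0.131, n = 2, Fisher's exact test with FDR = 2.50e-31 and 6.34e-30). Here too the first 30% of the gene was alike, at 12.7% and 12.4% in the *h3.3kd* libraries and 12.4% in WT. The last 30% was at 9.64% and 11.0%, against 33.7% in WT. Of 39 methylated dyads, 4 were unmethylated in both *h3.3kd* libraries and 12 stayed methylated in both. A small annotated gene on the same stretch, AT5G26717, lies at its 3′ end, outside the lower tiles.

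AT3G58510 (chromosome 3, 21639978 to 21643795, plus strand), a DEAD-box gene, was at 30.6% and 27.4% in the *h3.3kd* libraries and 41.1% in WT, a difference of -12.1 points (SD 2.24, n = 2, Fisher's exact test with FDR = 1.28e-16 and 1.38e-28). It was the called gene closest to the threshold. The nearest genes on the other side were AT1G48650, at 31.9% and 29.1% against 41.4% in WT, and *UAP56b*. AT1G48650, a DEAH-box gene, had 10 lower tiles, second to *LBA1*, and its last 30% was at 23.9% and 17.6% in the *h3.3kd* libraries and 45.7% in WT.

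**Figure D3:**
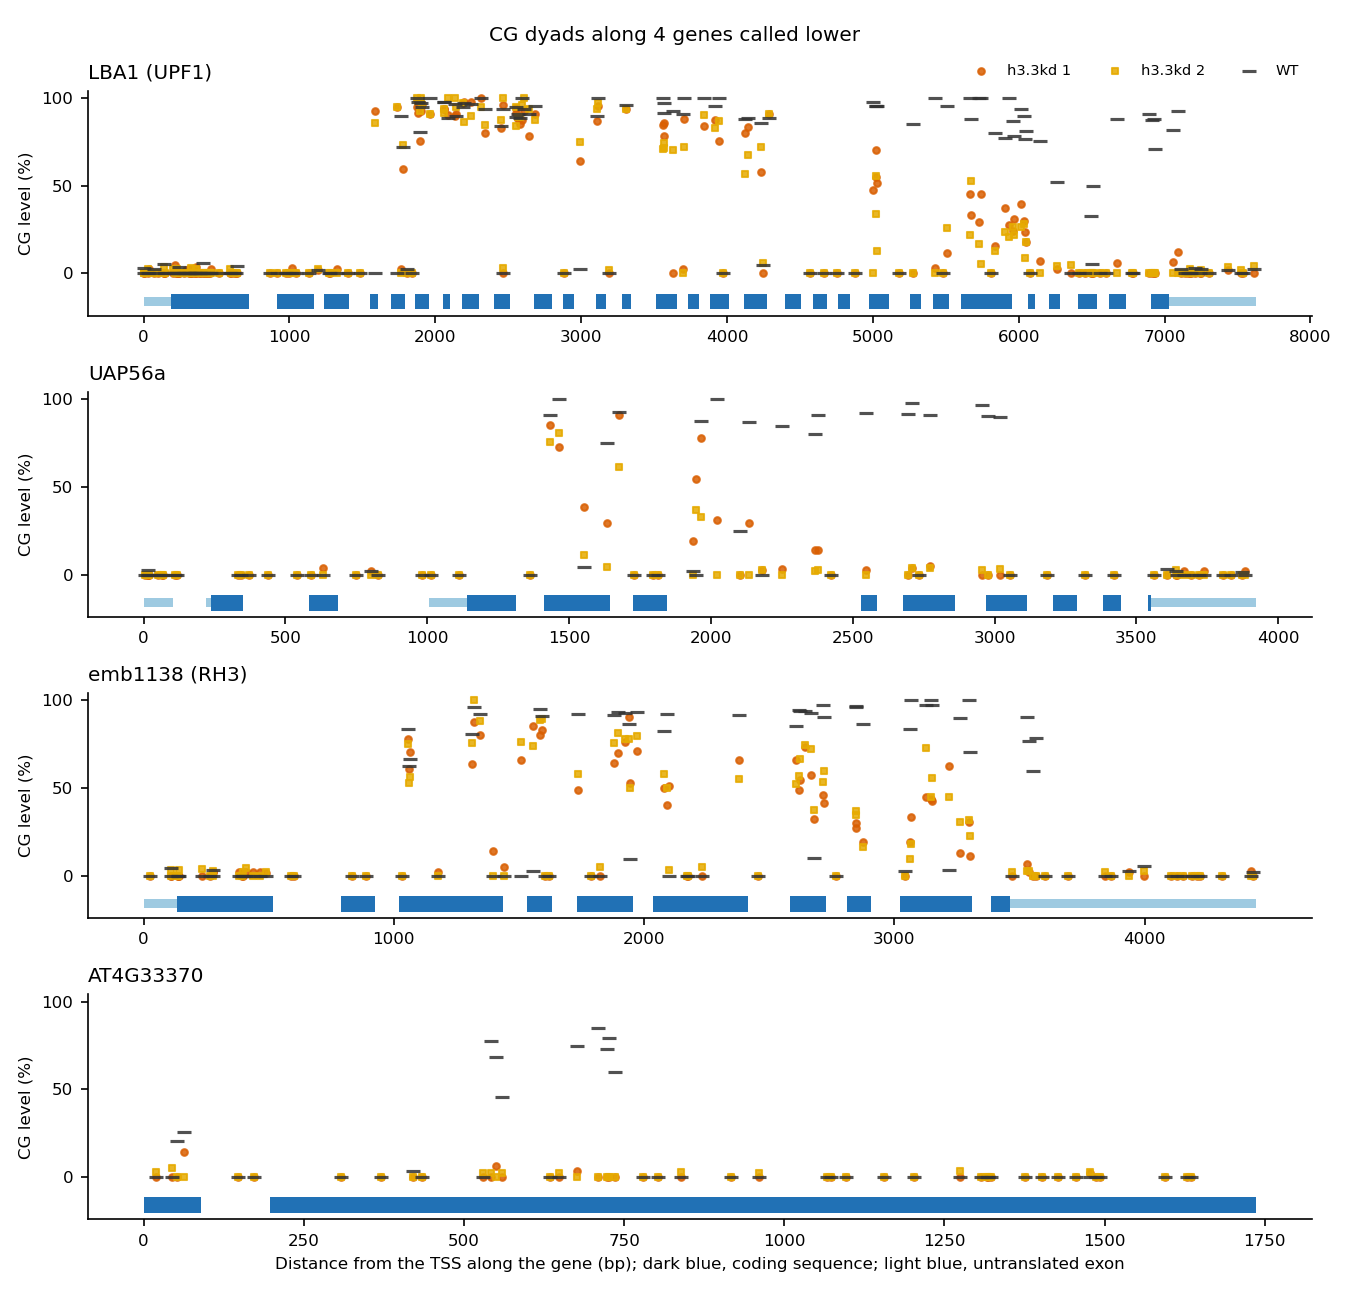
CG level (%) of each dyad with at least 4 calls in every library, against the distance from the TSS (bp), in *LBA1*, *UAP56a*, *emb1138* and AT4G33370, with circles for *h3.3kd* 1, squares for *h3.3kd* 2, dashes for WT and the exons drawn below. In the last 30% of *LBA1* many dyads are high in WT and low in both *h3.3kd* libraries, whose levels there were 8.09% and 5.87%, against 38.8% in WT.

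The second comparison asked where along the gene the CG level changed. Over the 63 RNA helicase genes of at least 1 kb, the first 30% of the gene from the transcription start site (TSS) was at 14.3% and 14.4% in the *h3.3kd* libraries and 15.1% in WT, a difference of -0.722 points. The middle 40% was at 47.4% and 45.9%, against 51.2%, and the last 30% before the transcription end site (TES) was at 27.7% and 25.8%, against 34.8%. The difference at the 3′ end was -8.07 points (SD 1.301, n = 2), or -23.2% of the WT level, where the 5′ end had -4.80% and the middle -8.90%. In other genes the same parts had -7.00%, -8.39% and -18.9% of their WT level, from the 5′ end to the 3′ end. Of these parts of the gene, the 3′ end was thus where both gene sets lost the largest share, and the difference between the sets was not tested. In bins of a twentieth of the gene, the first 3 bins of the RNA helicase genes were slightly higher in the *h3.3kd* libraries, by 0.0590 to 0.389 points. Their WT levels were low, at 2.04%, 3.28% and 8.33%. In other genes the same bins differed by -0.443, -0.355 and -0.376 points. The 4th bin was lower, at 18.4% and 18.3%, against 21.8% in WT. The largest drop in points was in the 16th, which was at 37.5% and 38.7% in the *h3.3kd* libraries and 49.4% in WT. Relative to the WT level, of 16.5% and 10.7%, the largest drops were in bins 19 and 20, with -39.0% and -40.4%. In other genes these bins had -22.7% and -16.2%. The flank bin just upstream of the TSS was lower as well, at 7.19% and 6.83%, against 9.40% in WT. In other genes that flank bin was at 4.58% and 4.49%, against 5.27% in WT.

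**Figure D4:**
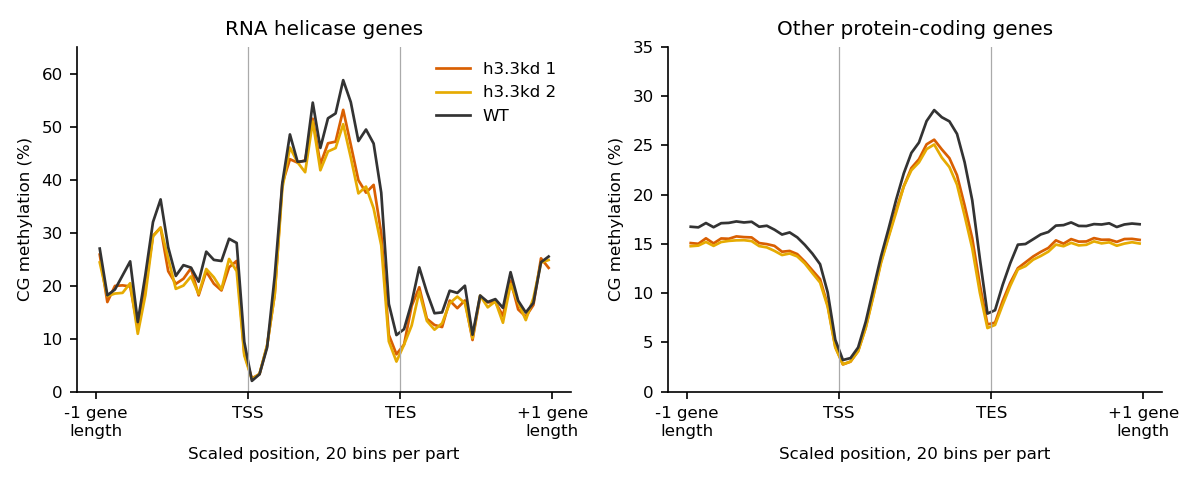
CG methylation (%) along the gene and its flanks, each flank as long as the gene and each part in 20 bins, in the RNA helicase genes (left) and in other protein-coding genes (right, on its own axis), with 1 line for each library. The lines of *h3.3kd* and WT run close in the first 3 bins after the TSS and lie furthest apart toward the TES. There the RNA helicase genes fell to 37.5% and 38.7% in the 16th bin, against 49.4% in WT.

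Within the RNA helicase genes the coding sequence was at 34.8% and 33.7% in the *h3.3kd* libraries and 38.9% in WT, and the introns at 31.7% and 30.5%, against 35.8%. The differences of -4.64 and -4.75 points were alike. Untranslated exons were hardly methylated, at 1.86% and 1.80% in the *h3.3kd* libraries and 3.13% in WT. The CHG level was 1.06% and 1.08% in the *h3.3kd* libraries and 1.05% in WT, and the CHH level was 0.620% and 0.618%, against 0.628%. Without the 2 genes at 5% CHG or more, the CHG level was 0.567% and 0.573% in the *h3.3kd* libraries and 0.573% in WT, and the difference turned to -0.00316 points. In other genes CHG was at 1.28% in both *h3.3kd* libraries and 1.45% in WT, which is -11.4% of the WT level, and at 0.567% and 0.576%, against 0.610%, in those under 5% CHG. These values include cytosines that escaped conversion.

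The 2 RNA helicase genes with CHG methylation of 5% or more were AT1G36020 and AT2G07750, and all others were at or under 0.869%. AT2G07750, a DEAD-box gene, was at 87.4% and 87.0% CG in the *h3.3kd* libraries and 87.5% in WT, with CHG at 40.4% and 40.5% in the *h3.3kd* libraries, against 34.4% in WT. AT1G36020, a gene of 422 bp, was at 89.0% and 89.6% CG, against 90.8%, and neither gene passed the test for CG. They were named for their CHG level after the values were seen. The CHG difference was not tested.

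Tiles of 100 bp show changes that whole genes average out. A tile was called where both *h3.3kd* libraries differed from WT by at least 20 points in one direction at an FDR under 0.01. Of the 68 RNA helicase genes 49 overlapped at least 1 lower tile, or 72.1%, where 34.4% of all genes with a tested tile did. A higher tile was found in 38 of them, or 55.9%, against 21.7% of all genes. Both kinds were present in 31 genes and neither in 12, and these counts were not made over all genes. Longer and more methylated genes have more tiles that can be called. Per tile that was at least 20% methylated in WT, 182 of 1059 in the RNA helicase genes were lower, or 17.2%, against 17.4% of such tiles in all genes. Of tiles at 80% or less in WT, 55 of 1853 were higher, or 2.97%, against 1.77% in all genes. The latter include the tiles of many genes with little CG methylation, as the median WT level was 5.18% over all tested genes and 26.4% in the RNA helicase genes. The share of higher tiles was not compared at like WT levels.

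The lower tiles averaged 23.1% and 19.7% in the *h3.3kd* libraries and 71.3% in WT, and the higher tiles 71.4% and 70.1%, against 24.4%. The lower tiles were 60.3% coding sequence and 35.7% intron by length. By position, 98 of the 182 lower tiles (53.8%) had their centre in the last 30% of the gene, where 29.5% of the methylated tiles lay. Called lower were 9.94% of the methylated tiles in the first 30%, 11.7% in the middle and 31.4% in the last 30%, and in other genes 11.4%, 13.8% and 26.1%. The 55 higher tiles were placed differently, with 12 in the first 30%, 28 in the middle and 15 in the last 30%.

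Single dyads were counted as well. In RNA helicase genes under 5% CHG, 2069 dyads were methylated in WT (60% or more), among those covered by 10 or more calls per library. Of these, 168 were unmethylated (under 10%) in both *h3.3kd* libraries, or 8.12%, against 8.32% in all genes under 5% CHG, and 1520 stayed methylated in both. A further 55 were lost in 1 *h3.3kd* library and kept in the other. In the opposite direction, 81 of 3875 unmethylated dyads were methylated in both *h3.3kd* libraries, or 2.09%, against 0.882% in all genes. The dyads of all genes include those of many genes with little CG methylation in WT. Gains were not compared between genes of like WT level, so these shares do not set the RNA helicase genes apart. *LBA1* had the most lost dyads, 11 of 72, and AT3G06480, a DEAD-box gene named after its values were seen, the most gained, 8 of 68.

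Because the RNA helicase genes were more methylated than other genes in WT, genes were also set side by side at like levels, with the WT level taken at every other dyad and the change at the dyads between. Neighbouring dyads can lie on the same reads, so that both measures were not independent. Not all 68 RNA helicase genes entered this comparison. From 2% to 10%, 5 RNA helicase genes had a median difference of -1.23 points, against -0.533 in other genes, and from 10% to 20% it was -4.48 points in 8 genes, against -1.81. From 20% to 30%, 15 RNA helicase genes had a median difference of -6.17 points, against -2.83 in 2742 other genes. From 30% to 40% it was -3.94 points in 15 genes, against -3.51, and at 40% or more -3.93 points in 13 genes, against -4.55. At 40% or more the means were -4.85 points, against -4.77, so that the order there differed between median and mean. These differences between the sets were not tested. The RNA helicase genes were longer than the other genes in each of these ranges, with medians of 3486, 4834 and 6209 bp in the ranges from 20% upward, against 3050, 3560 and 4541 bp.

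Among genes for splicing and mRNA export, 8 RNA helicase genes were listed, and 1 was called lower, *UAP56a*. Of the 8, 6 were lower at an FDR under 0.01 in both libraries, beside the 42.6% of RNA helicase genes and 19.0% of all genes given above, with a median difference of -6.61 points over all 8. The lists below are small and are to be read against the same shares, and against 1.44% of all genes for the calls. *EMB3011* (PRP16, which in yeast remodels the spliceosome between its catalytic steps) was at 44.4% and 42.6% in the *h3.3kd* libraries and 51.8% in WT (difference -8.23 points, SD 1.25, n = 2). AT1G26370 (*RID1*) was at 29.9% and 28.5%, against 35.5%. AT3G62310 was at 17.0% and 12.9%, against 21.9%, and AT2G47250 at 15.1% and 12.9%, against 19.4%. *ESP3* and AT3G26560 did not pass in both libraries. *ESP3* was at 44.0% and 42.3%, against 46.2%, and AT3G26560 at 37.7% and 36.9%, against 37.0%. Of 5 further spliceosomal helicase genes whose product names lack the words RNA helicase, 0 were called and 3 passed an FDR of 0.01 in both libraries as lower, with a median of -4.84 points.

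Among 6 genes for RNA decay and surveillance, *LBA1* was called lower and 4 were lower at an FDR under 0.01 in both libraries (19.0% of all genes and 42.6% of RNA helicase genes were), with a median difference of -4.22 points. *MTR4*, a Ski2-like helicase that serves the nuclear exosome, was at 30.3% and 28.6% in the *h3.3kd* libraries and 38.4% in WT, a difference of -8.97 points (SD 1.21, n = 2). Its change was largest in the last 30%, at 24.4% and 18.4%, against 44.7%, while its first 30% was at 20.8% and 21.8%, against 21.0%. *HEN2*, its relative in the nucleoplasm, was at 35.02% and 33.7%, against 36.5%, and had 4 lower and 3 higher tiles. AT3G46960, the third Ski2-like gene, was at 43.4% and 43.5%, against 46.2%. AT3G61240 was at 9.94% and 10.3%, against 15.8%. AT2G45810 was level over the whole gene, at 5.67% and 5.21%, against 5.13%, but not along it. Its middle 40% was at 15.9% and 13.5% in the *h3.3kd* libraries and 3.83% in WT, and its last 30% at 2.93% and 4.55%, against 14.4%. The related genes *SDE3*, at 28.6% and 29.4% against 37.2%, and *RH8*, at 21.7% and 21.0% against 26.5%, were lower at an FDR under 0.01 in both libraries.

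Of 5 genes for ribosome assembly, 0 were called (1.44% of all genes were called lower) and 2 were lower at an FDR under 0.01 in both libraries, a share near the 42.6% of all RNA helicase genes. AT1G77030, annotated as helicase 29, was at 21.8% and 20.2% in the *h3.3kd* libraries and 29.6% in WT. *PRH75*, a nuclear DEAD-box protein, was at 9.64% and 3.12%, against 14.03%. Its *h3.3kd* libraries differed from each other by -6.52 points, nearly as much as their mean differed from WT (-7.66 points, SD 4.61, n = 2), and of its 9 methylated dyads 1 was lost in both and 0 were kept in both. *RH36*, needed for the maturation of ribosomal RNA, was at 7.61% and 8.30%, against 8.39%. AT5G60990 was at 20.2% and 19.3%, against 21.6%, and AT5G65900 at 21.5% and 19.7%, against 18.4%.

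Of 6 genes for chloroplasts and mitochondria, *emb1138* was the only one that was called or that passed an FDR of 0.01 in both libraries, and the median difference was -0.647 points. *EMB3108* (RH22) was at 25.8% and 26.6% in the *h3.3kd* libraries and 26.6% in WT. The neighbouring genes *PMH1* and *PMH2*, which encode mitochondrial helicases, were at 22.2% and 23.6%, against 23.7%, and at 29.9% and 29.4%, against 29.2%. *ATSUV3*, a mitochondrial helicase of RNA turnover, was at 36.8% and 34.2%, against 34.7%, and had 1 lower and 3 higher tiles. AT3G06980 was at 13.96% and 12.9%, against 15.5%. All 6 overlapped at least 1 lower and at least 1 higher tile, where 72.1% and 55.9% of all RNA helicase genes, and 34.4% and 21.7% of all genes, did.

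Of 3 genes for translation initiation and stress responses, 0 were called. AT1G72730, annotated as most like eIF4A1, the helicase that opens the 5′ end of mRNA for the ribosome, was at 21.5% and 20.1% in the *h3.3kd* libraries and 29.5% in WT (difference -8.69 points, SD 1.01, n = 2, Fisher's exact test with FDR = 4.57e-08 and 2.86e-11). Its drop was largest in the middle 40%, at 0.555% and 0.863%, against 24.9%. *STRS1* was at 15.8% and 16.4%, against 15.1%, and *STRS2* at 9.48% and 10.3%, against 8%, and both are known as attenuators of stress responses. Over the 5 lists, 0 of the 18 related genes outside the RNA helicase group were called in either direction, where 1.44% of all genes were called lower and 0.304% higher. Of the 18, 8 were lower at an FDR under 0.01 in both libraries, and the median difference was -3.38 points.

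The largest rise was at AT1G28180 (chromosome 1, 9843023 to 9844561, minus strand), a short DEAD-box-like gene, at 27.4% and 28.8% in the *h3.3kd* libraries and 19.4% in WT. The difference of 8.69 points (SD 0.996, n = 2, Fisher's exact test with FDR = 1.73e-07 and 1.16e-09) exceeded the spread but not the threshold of 10 points. It was the single RNA helicase gene that was higher at an FDR under 0.01 in both libraries. Its first 30% was at 51.8% and 49.7% in the *h3.3kd* libraries and 29.3% in WT, and its 2 higher tiles lay in untranslated exon. AT5G39840 followed, at 37.9% and 41.4%, against 34.6%, where *h3.3kd* 1 had an FDR of 0.0106 by Fisher's exact test. *FANCM*, which in other organisms remodels stalled replication forks, was level over the gene, at 42.6% and 43.0%, against 43.3%, and held 4 lower and 4 higher tiles. Gains and losses thus lay in the same gene with a sum near 0.

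Of the 68 genes, 66 had a read depth of at least 0.7 times the median of the library in every library. AT1G71280 and AT1G71370 had between 0.407 and 0.493, and 52.2% and 44.1% of their 50-base windows recur in the genome. Both were unmethylated in every library, at no more than 1.29%. They were named for their depth. Over 5% of the 50-base windows recur in 7 of the 68 genes. Among all 68 genes, 21 overlap another protein-coding gene, and calls there count for both.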

How the data were processed

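Whole-genome bisulfite libraries of mature leaves, 2 of *h3.3kd* and 1 of WT, were analysed from the deposited counts of C and T calls per cytosine, which the authors obtained by collapsing identical reads and mapping with BS Seeker to TAIR10. The deposited counts were not normalised. Between 1.231% and 1.247% of cytosines were listed on more than 1 line, and their counts were summed. Genes, products and domains were taken from the TAIR10.1 annotation. The authors' DMR criteria guided the tests, which were two-sided Fisher's exact tests of each *h3.3kd* library against WT. They were computed with custom code (numba 0.67.0, Python 3.11.15), and the Wilson intervals with scipy 1.17.1. The p-values were adjusted by Benjamini-Hochberg over all tested genes or all tested 100-bp tiles, at an FDR under 0.01. Genes needed 10 CG cytosines, 100 calls and a difference of 10 points, tiles 20 calls and 20 points. Lower tiles within 200 bp were merged. The 5′ and 3′ ends were 30% of a gene of at least 1000 bp. Limma 3.58.1 (R 4.3.3) on log2 ratios of C to T with 0.5 added, with 1 residual and 3.54 prior degrees of freedom, was an alternative. Each test was tested on simulated data. Depth sets the precision of each level, as Wilson intervals of calls that are not independent molecules.

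The RNA helicase genes and the 5 functional lists, written from general knowledge, were chosen with earlier results of these data known. Named were the genes of these lists, the called genes, the 8 largest drops and 3 largest rises by the smaller of the differences, and the genes with the most lower (3) and higher (2) tiles. A few others are named beside a count or limit. Alternatives covered thresholds, coverage minimums, site averaging, gene parts, the gene set and each *h3.3kd* library left out. The labels do not say that the libraries came from separate plants beyond their replicate numbers, while the study calls the *h3.3kd* data biological replicates.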

Additional observations from a re-analysis of the deposited data

How the results depend on the processing

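No paired analysis was possible because WT had only 1 library. The lower CG level of the RNA helicase genes and its drop at the 3′ end kept their direction under every alternative that was run on them. Leaving out an *h3.3kd* library gave CG differences of -4.55 to -3.51 points, 5′ differences of -0.786 to -0.658, 3′ differences of -8.99 to -7.15, CHG differences of 0.0081 to 0.0337 and CHH differences of -0.00947 to -0.0073. It gave 5 to 9 genes called lower (523 to 710 of all genes) and 0 called higher (136 to 154 of all genes). A lower tile was found in 52 (10425 to 10822 of all genes) and a higher tile in 40 to 44 (7273 to 7803 of all genes). Without *h3.3kd* replicate 1, AT1G48650 (-12.3 points), *UAP56b* (-11), *PRH75* (-10.9) and AT1G27900 (-10.4, named for this count) were called lower as well, and AT3G26560 (-0.171, against 0.717 without replicate 2) and *ATSUV3* (-0.465, against 2.05) turned negative. The 5′ difference was -0.39 points with ends of 20% and -0.495 with the mean of site levels, which also moved CHG to 0.0891 and turned CHH to 0.00617. The count of RNA helicase genes called lower was 17 at 5 points (2341 of all genes) and 0 at 20 points (32 of all genes), and 1 was called higher at 5 points (360 of all genes). With a threshold of 40 points 21 genes had a higher tile (2956 of all genes). Limma, at an FDR under 0.05, called 0 RNA helicase genes and 1 of all genes, where 3947 of all genes were lower and 1562 higher at an unadjusted p under 0.05, and the 5 genes called by Fisher's exact test had limma FDRs of 0.0816 to 0.118. The causes of these shifts were not tested. WT was a single library.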
